A study of Mus musculus with 2 samples.

Results

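The PD-1, CTLA-4 and B7 family was examined as 7 genes, chosen by symbol from the 32285 features counted in each library, and all 7 were found. The receptors were Pdcd1 (PD-1), Ctla4 and Cd28, and the ligands were Cd274 (PD-L1), Pdcd1lg2 (PD-L2), Cd80 (B7-1) and Cd86 (B7-2). The question addressed was how the receptors in each T cell type, and the ligands across tumor, myeloid and stromal classes, differed between MSA-2–treated and untreated tumors. Single-cell RNA-seq was available from 2 libraries of subcutaneous MC38 tumors, a mouse colon adenocarcinoma line, grown in C57BL/6 mice of 6 to 8 weeks. MSA-2 is a small-molecule agonist of STING, the sensor that links cytosolic DNA to type I interferon. One library was labelled untreated and negative control, although the design text gives its mice intratumoral vehicle (saline with 10% DMSO), and the other was labelled MSA-2 treatment. Both received 3 injections at intervals of 3 days, the study's methods give collection on day 7, and material of 3 mice or samples was pooled, although it is not stated whether this holds for each library. The untreated label is used below. With 1 library per condition no test between conditions was possible. The 95% intervals given cover counting error only, and a fold describes these 2 libraries.

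PD-1 is an inhibitory receptor that activated and exhausted T cells display, and its ligands PD-L1 and PD-L2 dampen T cell receptor and CD28 signals through it. CD28 and CTLA-4 bind the same ligands, CD80 and CD86, on antigen-presenting cells. CD28 costimulates, whereas CTLA-4 binds more tightly, inhibits, and is carried at high levels by regulatory T cells (Tregs). PD-L1 is inducible by interferons on tumor, stromal and myeloid cells, while PD-L2 is largely kept to dendritic cells and macrophages. CD80 on the same membrane can bind PD-L1 in cis.

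Cells were assigned to classes by marker genes, with none of the 7 genes used as a marker. Of 13334 untreated and 13393 MSA-2 cells kept, the epithelial-like class, which stands for the MC38 tumor cells and is called the tumor class below, held 6596 and 7044. It was named from Gng11, Ccn1 and Anxa1, while Krt8, Krt18, Krt7 and Epcam were all at or below 0.661 CPM (UMIs per 1000000 UMIs of the class) in both libraries. These naming genes do not all set the class apart from stroma. In the untreated library Gng11 was at 1315 CPM against 1408 in endothelial-like cells. Ccn1 was at 681 CPM against 808 in fibroblast-like cells. Anxa1 (1006 CPM untreated), and Gng11 after MSA-2 (2075 CPM), were highest in the tumor class. The study's methods call its retained cells immune cells. Macrophage-like cells numbered 2737 untreated and 1241 MSA-2, and monocyte-like cells 216 and 422. Neutrophil-like cells, named from S100a8, S100a9 and Retnlg, numbered 42 and 2650. The study reports a rise of monocytes after MSA-2, and whether these are the same cells cannot be read from its text. Dendritic cell (DC)–like cells numbered 381 and 54. T cells were few after MSA-2: CD8 T–like cells numbered 691 and 112, conventional CD4 T–like cells 195 and 23, Treg-like cells 160 and 18, and NK-like cells 260 and 125. In the 23 MSA-2 cells of the conventional CD4 T–like class no Cd4 UMI was found, against 4 of Cd8b1 and 1 of Cd8a, so their name rests on the cluster and not on their own Cd4. A total of 53 barcode sequences occurred in both libraries. Median depth was 8298.5 UMIs per untreated and 9271 per MSA-2 cell. Where shares of cells with a UMI are given, each cell was thinned to 1500 UMIs.

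The 7 genes lie at 4 places in the mm10 genome (GENCODE M21). Cd28 (chr1:60716800-60773359, plus strand) and Ctla4 (chr1:60887000-60915832, plus strand) are 113640 bases apart, and Pdcd1 is at chr1:94038305-94052553 on the minus strand. Cd80 (chr16:38455561-38496335, plus strand) and Cd86 (chr16:36603869-36666081, minus strand) share a chromosome. Cd274 (chr19:29367455-29388095, plus strand) and Pdcd1lg2 (chr19:29410919-29471161, plus strand) are neighbours with 22823 bases between them. The span of Ctla4 holds a processed pseudogene on the same strand, Rpl18-ps1 (chr1:60900898-60901422), and Cd274 and Pdcd1lg2 each overlap an antisense gene. The 250 bases before the transcription start of the chr19 neighbours are shown, because over all cells the 2 neighbours differed between the libraries in opposite directions. Capitals mark every GAAA or TTTC, the half-site of interferon regulatory factors on either strand (RefSeq, GRCm38.p6, plus strand; chr19:29367188-29367437 for Cd274 and chr19:29410669-29410918 for Pdcd1lg2).
Cd274: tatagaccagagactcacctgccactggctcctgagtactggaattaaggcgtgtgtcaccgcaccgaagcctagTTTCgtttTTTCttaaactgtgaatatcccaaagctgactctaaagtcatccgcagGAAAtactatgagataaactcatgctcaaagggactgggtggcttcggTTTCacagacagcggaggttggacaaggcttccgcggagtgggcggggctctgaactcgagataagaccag
Pdcd1lg2: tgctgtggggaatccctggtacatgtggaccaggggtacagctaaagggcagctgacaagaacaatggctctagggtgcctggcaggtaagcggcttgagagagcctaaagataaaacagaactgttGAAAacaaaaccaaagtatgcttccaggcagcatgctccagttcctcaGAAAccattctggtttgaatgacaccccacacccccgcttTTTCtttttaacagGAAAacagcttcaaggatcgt
Each window held 4 half-sites, as did the window of Ctla4, while those of Pdcd1 and Cd80 held 2 each; no window was at hand for Cd28 and Cd86. Of 32851 windows of this length, 86.4% held at least one half-site, with a median of 2. Of the longer motifs searched on both strands, a pair of GAAA with 2 bases between (2.98% of windows), TTCNNNGAA (7.02%), and GGG and TTTCC with 2 bases between (1.41%) had no match in the 5 members' windows.

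Over all cells the receptors were lower and Cd274 was higher in the MSA-2 library. Pdcd1 had 849 untreated and 204 MSA-2 UMIs, or 4.63 and 1.06 CPM (log2 ratio -2.12, 95% interval -2.35 to -1.90). Ctla4 went from 14.9 to 3.03 CPM (-2.29, -2.43 to -2.16) and Cd28 from 13.7 to 1.97 CPM (-2.80, -2.96 to -2.64). Cd274 was at 88.9 and 224 CPM, with 16298 and 43065 UMIs (log2 ratio 1.34, 1.31 to 1.36). The other ligands did not follow Cd274. Pdcd1lg2 was at 5.78 and 2.60 CPM (-1.15, -1.31 to -1.0, but -1.98 with a stricter cell filter and -0.29 as shares of thinned cells), Cd80 at 12.8 and 15.7 CPM (0.30, 0.22 to 0.37, but -0.28 with a stricter cell filter), and Cd86 at 124 and 59.97 CPM (-1.05, -1.09 to -1.02, but -0.99 per cell and -0.68 as shares of thinned cells). For counts of genes past 2-fold, here and below, 1 CPM was added to both levels, so that differences of very low genes count less. By this rule all 3 receptors and 1 of the 4 ligands (Cd86) were at least 2-fold lower and 1 ligand (Cd274) at least 2-fold higher, while Pdcd1lg2, at -0.91 with 1 CPM added, was not counted. Of 19509 genes compared over all cells, 2.98% were at least 2-fold higher and 2.94% at least 2-fold lower.

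The numbers of cells per class and the level within classes were then varied separately. Giving the untreated class levels the MSA-2 cell numbers moved Pdcd1 by -1.86, Ctla4 by -1.63 and Cd28 by -1.84 in log2, against observed differences per cell of -2.06, -2.24 and -2.74. Giving the untreated cell numbers the MSA-2 levels moved them by 0.29, -0.92 and -0.55. For the receptors, the class cell numbers alone thus gave most of the difference over all cells. For Cd274 it was the reverse, with -0.14 from cell numbers and 1.31 from levels (observed 1.40). Cd86 moved by -0.95 from cell numbers and -0.02 from levels (observed -0.99), Pdcd1lg2 by -1.09 and -0.92 (observed -1.09), and Cd80 by -0.14 and 0.46 (observed 0.35).

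**Figure D1:**
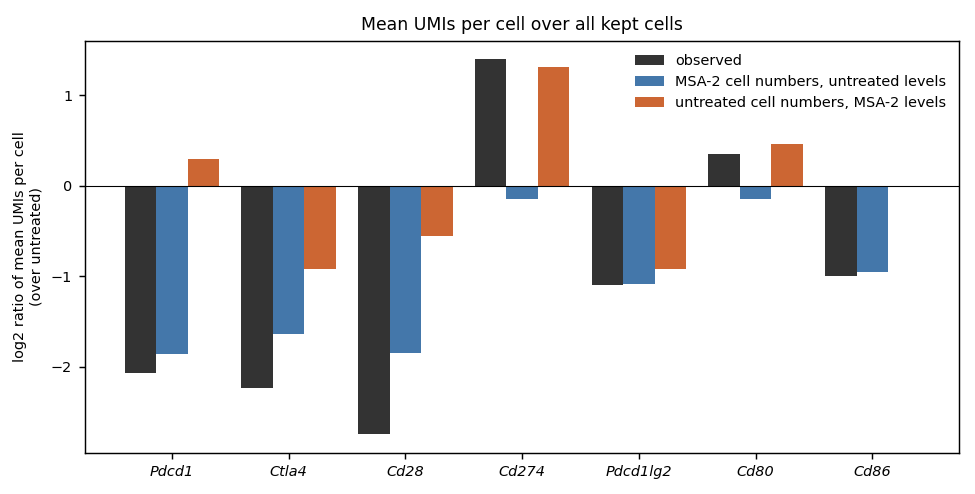
Log2 ratio of UMIs per cell, MSA-2 over untreated, for each of the 7 genes: as observed, with only the class cell numbers exchanged, and with only the class levels exchanged. The bars for cell numbers lie far below 0 for Pdcd1, Ctla4 and Cd28, and the bar for levels lies far above 0 for Cd274 (1.31).

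The classes that held the transcripts differed between the libraries for most of the genes. Of all Cd274 UMIs, the tumor class held 36.2% without and 52.3% with MSA-2, macrophage-like cells 32.9% and 11.6%, and neutrophil-like cells 0.380% and 22.1%. Neutrophil-like cells held 38.9% of MSA-2 Cd80 UMIs and 52.3% of MSA-2 Pdcd1lg2 UMIs, against 0.769% and 0.189% in the untreated library. Cd86 stayed mainly in macrophage-like cells, with 64.6% and 50.6% of its UMIs. Of all Pdcd1 UMIs, CD8 T–like cells held 77.0% and 58.3%.

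**Figure D2:**
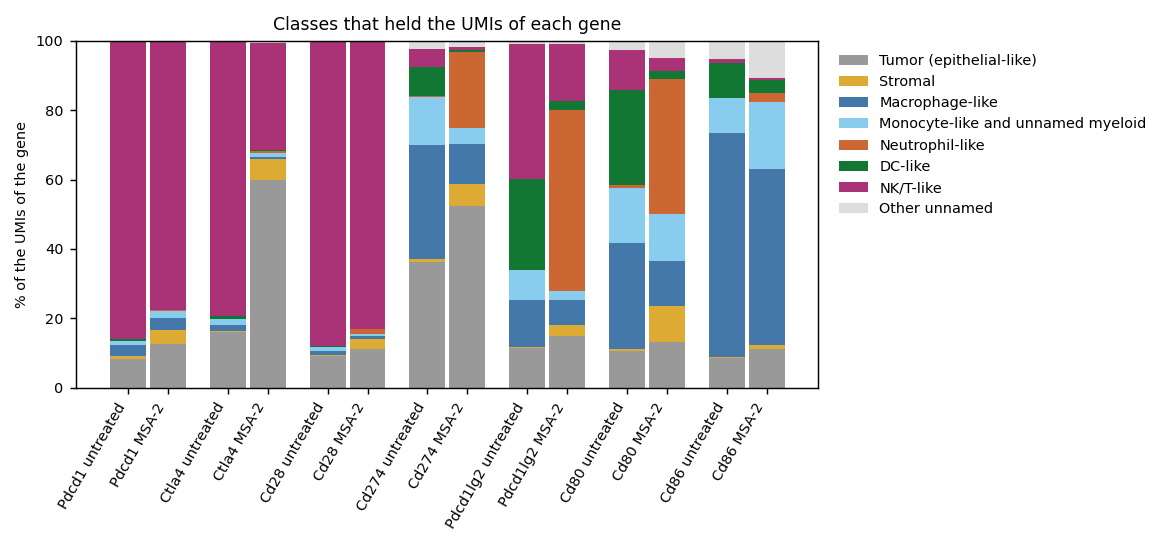
Share of each gene's UMIs held by each class (stacked, percent of all UMIs of the gene in that library), untreated beside MSA-2. Neutrophil-like cells hold 22.1% of Cd274, 38.9% of Cd80 and 52.3% of Pdcd1lg2 UMIs in the MSA-2 library and below 1% of each in the untreated one.

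Within CD8 T–like cells the level of Pdcd1 hardly differed between the libraries. It was 209.6 CPM untreated (654 UMIs) and 199.9 CPM after MSA-2 (119 UMIs), a log2 ratio of -0.07 (-0.36 to 0.22) that ranged from -0.48 to 0.22 under other definitions of the class. In cells thinned to 1500 UMIs, 26.1% of 679 untreated and 27.9% of 104 MSA-2 cells had a Pdcd1 UMI. In the tumor class, which should lack the gene, 0.107% and 0.0142% had one at the same thinned depth (median depths before thinning 3884 and 4718.5 UMIs in CD8 T–like cells, 20250 and 19952 in the tumor class). Among the other lymphocytes, Pdcd1 was at 53.4 CPM in untreated Treg-like cells (21 UMIs) and at 178 CPM in MSA-2 ones (8 UMIs, log2 ratio 1.74, 0.35 to 2.97, and 0.39 with doublets kept). Conventional CD4 T–like cells had 25.2 and 63.0 CPM of Pdcd1 (11 and 3 UMIs, 1.32, -1.16 to 3.24) and NK-like cells 12.3 and 15.4 CPM (18 and 14 UMIs). With T cell types from marker UMIs, Pdcd1 was at 2.43 (0.77 to 3.90) in Tregs, on 14 and 6 UMIs. In conventional CD4 T cells it was then at 2.05 (0.68 to 3.38), on 12 and 10 UMIs. An unnamed lymphocyte cluster led by Gzmk and Ly6c2, with 221 untreated and 23 MSA-2 cells and Cd8a at 317 and 323 CPM, had 44.6 and 302 CPM of Pdcd1 (25 and 14 UMIs, log2 ratio 2.76, 1.70 to 3.76). In the untreated library CD8 T–like cells stood above every other named class. In the MSA-2 library the intervals of Treg-like and conventional CD4 T–like cells, on 8 and 3 UMIs, overlapped theirs.

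Ctla4, the competitor of CD28 for CD80 and CD86, was lower after MSA-2 in each named lymphocyte class. Treg-like cells had the highest level in both libraries, with 1503 CPM (591 UMIs) untreated and 780.0 CPM (35 UMIs) after MSA-2, a log2 ratio of -0.95 (-1.48 to -0.45). Foxp3, which defines Tregs, was at 214 and 334 CPM in this class. CD8 T–like cells went from 373 to 156 CPM (1164 and 93 UMIs, -1.26, -1.58 to -0.95) and conventional CD4 T–like cells from 445 to 63.0 CPM (194 and 3 UMIs, -2.82, -5.11 to -1.25). NK-like cells were at 78.7 and 44.1 CPM (-0.84, -1.39 to -0.31), and the unnamed cluster led by Gzmk and Ly6c2 at 157 and 194 CPM (88 and 9 UMIs). The CD8 value depended on 1 cycling sub-cluster of 118 untreated and 37 MSA-2 cells, in which Ctla4 was at 578 and 101 CPM and which held 45 untreated and 1 MSA-2 Foxp3 UMIs. Without it, CD8 T–like cells had 290 and 212 CPM of Ctla4, a log2 ratio of -0.45 (-0.85 to -0.08), so that the difference was no longer 2-fold. Leaving out the same cells hardly moved Pdcd1 (-0.17, -0.56 to 0.21). The share of thinned CD8 T–like cells with a Ctla4 UMI was 32.1% untreated (28.6 to 35.8) and 21.2% after MSA-2 (13.8 to 30.3), and that of Treg-like cells was 78.3% (70.4 to 84.8) and 64.3% (35.1 to 87.2). In the tumor class it was 0.366% and 0.256%.

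Ctla4 was also found in the tumor class, with 435 untreated and 348 MSA-2 UMIs that were 15.9% and 59.8% of all UMIs of the gene, at 2.94 and 2.13 CPM (log2 ratio -0.46, -0.67 to -0.25). Per 100 UMIs of Cd3g, a T cell gene, the tumor class had 76.3 and 490 Ctla4 UMIs, against 37.5 and 30.4 in the NK/T-like cells. For Pdcd1 the same ratios were 12.5 and 36.6 in the tumor class against 12.7 and 26.7 in NK/T-like cells, and for Cd28 40.4 and 59.2 against 38.5 and 53.0. In the MSA-2 tumor class Ctla4 thus stood far above the T cell ratio, and Pdcd1 and Cd28 stood near it. In untreated macrophage-like cells, on 61 Cd3g UMIs, both Ctla4 (85.2) and Pdcd1 (45.9) stood above the T cell ratio, and the MSA-2 values there rest on 3 Cd3g UMIs. Reads of the same-strand pseudogene inside Ctla4 could be counted with it, and its part in this value was not tested.

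Cd28, the costimulatory receptor, was lower after MSA-2 in all 4 lymphocyte classes, by less than 2-fold in 3 of them. Levels were 393 and 294 CPM in CD8 T–like cells (1227 and 175 UMIs, -0.42, -0.66 to -0.19) and 394 and 245 CPM in Treg-like cells (155 and 11 UMIs, -0.68, -1.72 to 0.19). NK-like cells had 168 and 109 CPM (246 and 99 UMIs, -0.63, -0.98 to -0.28). In conventional CD4 T–like cells Cd28 was at 628 and 168 CPM (274 and 8 UMIs, -1.90, -3.13 to -0.91), a ratio that was -0.48 (-1.41 to 0.33) with T cell types from marker UMIs. Between CD8 T–like and Treg-like cells, the untreated levels of Cd28 did not differ beyond their intervals. By class, the receptors at least 2-fold lower were 1 of 3 in CD8 T–like cells, where 9.16% of 9592 genes were. This was Ctla4, which was -0.79 with T cell types from marker UMIs and -0.60 as shares of thinned cells. In conventional CD4 T–like cells they were 2 of the 2 with 20 or more UMIs (Ctla4 and Cd28), where 24.8% of 3874 genes were. Cd28 does not pass there with T cell types from marker UMIs. In Treg-like cells 1 of 3 (Pdcd1) was at least 2-fold higher, against 8.18% of 3763 genes, and none was 2-fold lower, against 24.4%, although with T cell types from marker UMIs Ctla4 was at -1.41 (-2.18 to -0.74) and Cd28 at -1.04 (-2.51 to 0.11). In NK-like cells none passed 2-fold, against 5.27% of 8330 genes higher and 6.95% lower.

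**Figure D3:**
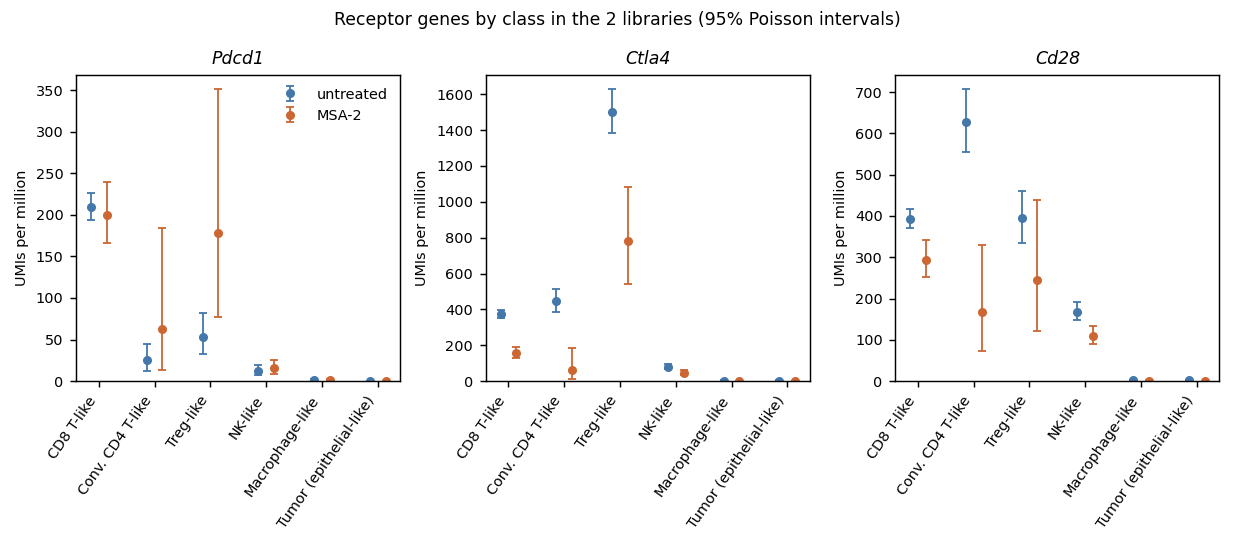
Level in CPM (linear axis) of Pdcd1, Ctla4 and Cd28 in each named lymphocyte class and in macrophage-like and tumor cells. The untreated and MSA-2 libraries are shown with exact 95% counting intervals. In CD8 T–like cells the intervals of Pdcd1 overlap (209.6 and 199.9 CPM) and those of Ctla4 do not (373 and 156 CPM).

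The receptors were then read together in single CD8 T–like cells at 1500 UMIs. Of 177 untreated cells with a Pdcd1 UMI, 37.3% also had one of Ctla4 (30.1 to 44.9), against 30.3% of 502 cells without (26.3 to 34.5). In the MSA-2 library these shares were 27.6% of 29 cells (12.7 to 47.2) and 18.7% of 75 cells (10.6 to 29.3). For Cd28 they were 49.2% (41.6 to 56.8) and 39.8% (35.5 to 44.3) untreated, and 31.0% (15.3 to 50.8) and 34.7% (24.0 to 46.5) after MSA-2. All of these intervals overlapped within a library.

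Cd274 was higher after MSA-2 in every class with at least 20 UMIs in each library. As CPM, it was most so among named classes in fibroblast-like, endothelial-like and tumor cells. With TMM scaling the ratio in neutrophil-like cells was above that in the tumor class. In the tumor class it was at 39.8 CPM untreated (5895 UMIs) and 138 CPM after MSA-2 (22542 UMIs), a log2 ratio of 1.80 (1.75 to 1.84). Fibroblast-like cells, 201 untreated and 697 MSA-2, went from 24.5 CPM (60 UMIs) to 206 CPM (2201 UMIs, 3.07, 2.70 to 3.46). Endothelial-like cells were at 127 and 533 CPM (79 and 532 UMIs, 2.08, 1.73 to 2.43) and pericyte-like cells at 55.7 and 171 CPM (10 and 35 UMIs, 1.62, 0.57 to 2.80). The shares of thinned cells with a Cd274 UMI followed the same direction. They were 6.11% and 19.0% in the tumor class, 1.53% (0.317 to 4.41) and 26.7% (23.4 to 30.2) in fibroblast-like cells, and 13.1% and 48.1% in endothelial-like cells.

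All 9 tumor clusters had a higher Cd274 level in the MSA-2 library, 8 of them at least 2-fold, with log2 ratios from 0.97 to 1.94. Their make-up differed, since a cluster led by H19 and Csmd3 held 1892 untreated and 508 MSA-2 cells, and clusters led by Rbfox1 held 69 and 1291 cells and 74 and 1166 cells. Cd274 in the tumor class was also set against markers of other cells. Per 100 UMIs of the macrophage gene C1qa, the tumor class had 30.3 and 360 Cd274 UMIs, against 4.40 and 15.8 in macrophage-like cells. At the ratio of Cd274 to S100a9 seen in neutrophil-like cells, the S100a9 in MSA-2 tumor cells would carry 0.199 Cd274 UMIs per cell, and 3.20 were found. In tumor cells without a UMI of Cd3g, Cd3e, Cd3d, Ptprc, C1qa or S100a9, 687 untreated and 364 MSA-2 with median depths of 9633 and 7643 UMIs against 20250 and 19952 in the class, Cd274 was at 68.9 and 208 CPM (495 and 678 UMIs, log2 ratio 1.59, 1.42 to 1.76).

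**Figure D4:**
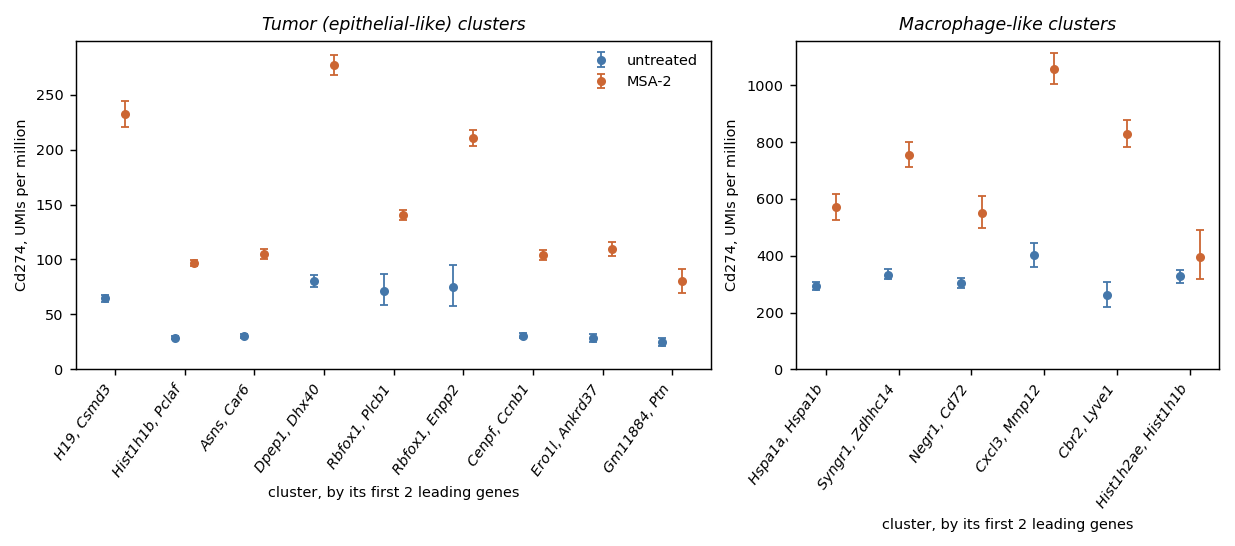
Cd274 level in CPM (linear axis) in each tumor cluster and each macrophage cluster, untreated and MSA-2, with exact 95% counting intervals. The level is higher in the MSA-2 library in 9 of 9 tumor and 6 of 6 macrophage clusters.

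Among myeloid classes of at least 20 cells, neutrophil-like cells had the highest MSA-2 level of Cd274, with 1865 CPM from 9500 UMIs, and 933 CPM from 62 UMIs in the 42 untreated cells (1.0, 0.64 to 1.38, just under 2-fold). This ratio was 2.07 with TMM scaling and 2.60 with a stricter cell filter, and the untreated class holds only those 42 cells. Of 1900 MSA-2 neutrophil-like cells deep enough to thin, 85.4% had a Cd274 UMI (83.8 to 87.0), the largest share of any named class of over 20 such cells. Macrophage-like cells were at 316 and 772 CPM (5365 and 4983 UMIs, 1.29, 1.23 to 1.35), and their 6 clusters ranged from 0.28 to 1.67, with 3 past 2-fold. Monocyte-like cells were at 458 and 822 CPM (353 and 1371 UMIs, 0.84, 0.67 to 1.02). DC-like cells as a whole went from 551 to 1051 CPM (1380 and 185 UMIs, 0.93, 0.70 to 1.16). MSA-2 DC-like cells were shallower (median 3416.5 against 6012 UMIs), and per cell their Cd274 log2 ratio was -0.08. Within them, mature regulatory DC (mregDC)–like cells, a migratory activated state, were at 1113 and 2083 CPM (71 and 13 cells, 0.90, 0.58 to 1.22), and conventional type 2 (cDC2)–like cells at 525 and 689 CPM (0.39, 0.04 to 0.73). MSA-2 values for cDC1-like and plasmacytoid DC–like cells rest on 2 cells and 1 cell and are not compared. In the untreated library the order of Cd274 levels began with mregDC-like and neutrophil-like cells, whose intervals overlapped, and ended with the tumor class and fibroblast-like cells. In the MSA-2 library, among classes of at least 20 cells, monocyte-like, macrophage-like, conventional CD4 T–like and cDC2-like cells followed the neutrophil-like cells and did not differ from each other, neighbour by neighbour, beyond their intervals.

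Lymphocytes carried Cd274 too. It was at 115 and 166 CPM in CD8 T–like cells (358 and 99 UMIs, 0.54, 0.20 to 0.86), at 125 and 176 CPM in NK-like cells (0.50, 0.19 to 0.82), at 271 and 693 CPM in conventional CD4 T–like cells (118 and 33 UMIs, 1.36, 0.75 to 1.92, but 0.56 with T cell types from marker UMIs) and at 226 and 446 CPM in Treg-like cells (89 and 20 UMIs, 0.98, 0.20 to 1.69). The smallest log2 ratios among the named classes compared were those of cDC2-like, NK-like and CD8 T–like cells.

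**Figure D5:**
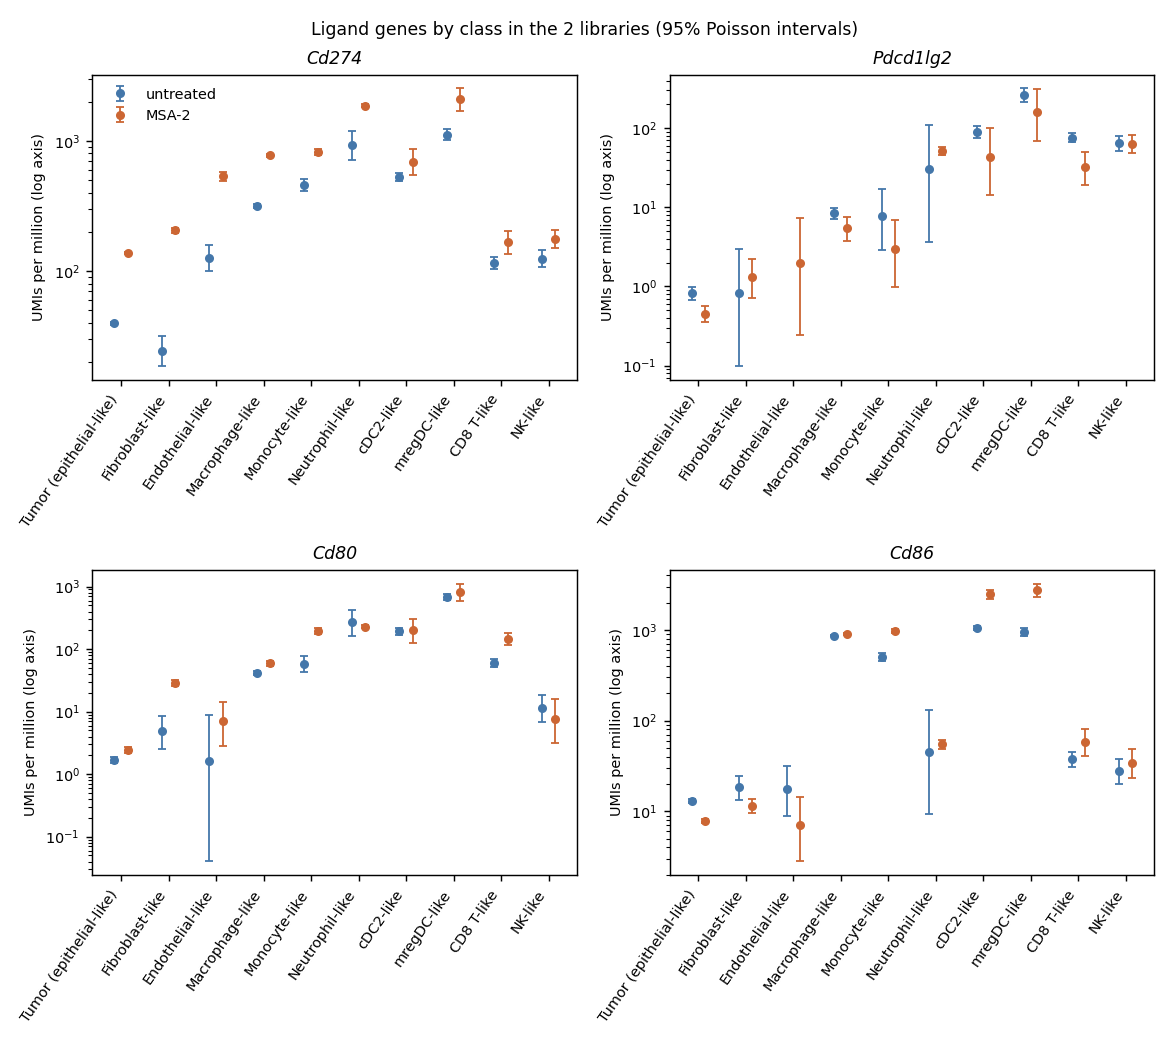
Level in CPM (log axis) of Cd274, Pdcd1lg2, Cd80 and Cd86 by class in the untreated and MSA-2 libraries, with exact 95% counting intervals. Cd274 is higher in the MSA-2 library in tumor (39.8 and 138 CPM), fibroblast-like (24.5 and 206 CPM) and macrophage-like cells (316 and 772 CPM), and Pdcd1lg2 is lower in macrophage-like cells (8.42 and 5.42 CPM).

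Pdcd1lg2, the second PD-1 ligand and the chr19 neighbour of Cd274, was sparse and mostly level or lower. In macrophage-like cells it was at 8.42 CPM (143 UMIs) and 5.42 CPM (35 UMIs), a log2 ratio of -0.63 (-1.21 to -0.09, and -1.50 with doublets kept), where Cd274 was more than 2-fold higher. DC-like cells had 111 and 73.9 CPM (277 and 13 UMIs, -0.58, -1.51 to 0.22) and mregDC-like cells 262 and 160 CPM (100 and 8 UMIs, -0.71, -1.96 to 0.33). CD8 T–like cells had 76.3 and 31.9 CPM (238 and 19 UMIs, -1.26, -2.01 to -0.58), while NK-like cells stood at 64.3 and 63.9 CPM (94 and 58 UMIs, -0.01, -0.51 to 0.48). Neutrophil-like cells, with most of the gene's MSA-2 UMIs, were at 51.2 CPM from 261 UMIs in 2650 cells, against 2 UMIs in 42 untreated cells. In the tumor class it was at 0.823 and 0.453 CPM, and 0.0762% and 0.0427% of thinned tumor cells had a UMI, the background beside which 1.03% and 0.900% in macrophage-like cells and 11.8% and 9.09% in DC-like cells stand. Over the 31 class and library points, Pearson's r of Cd274 with Pdcd1lg2 was 0.27, and with Cd80 it was 0.75. The points share libraries and depth, and these values are descriptive.

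Cd80 was higher after MSA-2 in monocyte-like, fibroblast-like and CD8 T–like cells. Monocyte-like cells went from 58.3 CPM (45 UMIs) to 196 CPM (327 UMIs), a log2 ratio of 1.75 (1.30 to 2.23), and the share of thinned cells with a UMI from 8.92% (5.46 to 13.6) to 25.2% (21.1 to 29.7). With doublets kept and at the higher clustering resolution, the log2 ratio fell below its interval but stayed past 2-fold. Fibroblast-like cells went from 4.91 CPM (12 UMIs) to 28.8 CPM (308 UMIs, 2.55, 1.73 to 3.52). Per 100 C1qa UMIs, MSA-2 fibroblast-like cells had 61.0 Cd80 UMIs against 1.22 in macrophage-like cells. CD8 T–like cells were at 60.9 and 148 CPM (190 and 88 UMIs, 1.28, 0.90 to 1.65) and Treg-like cells at 130 and 312 CPM (51 and 14 UMIs, 1.27, 0.30 to 2.14), whereas NK-like cells had 17 and 7 UMIs (-0.59, -2.10 to 0.75). The CD8 T–like value was 1.15 (0.62 to 1.66) without the cycling sub-cluster and 0.86 at a lower clustering resolution. Macrophage-like cells differed less, at 42.0 and 59.5 CPM (714 and 384 UMIs, 0.50, 0.32 to 0.68, but -0.08 with doublets kept), as did DC-like cells, at 255 and 375 CPM (640 and 66 UMIs, 0.55, 0.17 to 0.92, but -0.46 per cell). The highest level was in mregDC-like cells of both libraries, at 681 and 821 CPM (260 and 41 UMIs, 0.27, -0.24 to 0.75). Neutrophil-like cells were at 271 and 229 CPM (18 and 1169 UMIs, -0.24, -0.91 to 0.52, but 0.84 with TMM scaling) and the tumor class at 1.69 and 2.43 CPM (0.52, 0.29 to 0.76), with 0.259% and 0.285% of thinned tumor cells holding a UMI.

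Cd86, the ligand that macrophages and DCs carry most constantly, was higher in DC-like and monocyte-like cells and level in macrophage-like cells as a class. DC-like cells went from 915 to 2466 CPM (2294 and 434 UMIs, 1.43, 1.28 to 1.58, and 0.42 per cell), with cDC2-like cells at 1054 and 2487 CPM (1.24, 1.05 to 1.42) and mregDC-like cells at 956 and 2744 CPM (365 and 137 UMIs, 1.52, 1.23 to 1.81). Monocyte-like cells were at 504 and 973 CPM (389 and 1623 UMIs, 0.95, 0.79 to 1.11). Macrophage-like cells were at 868 and 903 CPM (14739 and 5827 UMIs, 0.06, 0.01 to 0.10), a value that was -0.20 per cell and 0.83 without integration of the libraries. In each of the 6 macrophage clusters, however, Cd86 was higher in the MSA-2 library, by 0.06 to 0.83 in log2. The cluster of the highest untreated Cd86, at 1269 CPM, held 913 untreated and 222 MSA-2 cells, and the cluster of the lowest, at 340.3 CPM, held 170 and 306. So the class value joins differences within clusters to a shift between them. An unnamed myeloid class was at 443 and 918 CPM (1906 and 612 UMIs, 1.05, 0.92 to 1.18). Cd86 was also among the leading genes of an unnamed cluster of shallow cells with a median of 1344 UMIs, which held 425 untreated and 525 MSA-2 cells.

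In tumor and stromal cells Cd86 was lower in the MSA-2 library, at 13 and 7.85 CPM in the tumor class (1932 and 1281 UMIs, -0.73, -0.83 to -0.63) and 18.4 and 11.6 CPM in fibroblast-like cells (45 and 124 UMIs, -0.67, -1.17 to -0.14). Per 100 C1qa UMIs the tumor class had 9.94 and 20.4 Cd86 UMIs, near the 12.1 and 18.5 of macrophage-like cells, and fibroblast-like cells had 10.5 and 24.6. In the tumor cells without a UMI of C1qa or the other immune genes, Cd86 was at 11.3 and 6.13 CPM (81 and 20 UMIs), and the part of macrophage RNA in these values was not tested. In neutrophil-like cells Cd86 was at 55 CPM after MSA-2, with 90.03 UMIs per 100 C1qa UMIs, and 6.89% of their thinned cells had a UMI against 63.4% of macrophage-like ones and 1.35% of the tumor class.

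The ligands at least 2-fold higher in a class, among those with 20 or more UMIs summed over the libraries, were read against all genes of that class. In the tumor class it was 1 of 4 (Cd274), against 2.58% of 18194 genes, and 1 of 3 receptors (Cd28) was 2-fold lower, against 1.65%. Pdcd1 there, with 71 and 26 UMIs, had a log2 ratio of -1.59 (-2.30 to -0.92) but -0.35 with 1 CPM added, and was not counted. In fibroblast-like cells 2 of 3 were higher, against 7.06%, and none lower, against 7.21%. In endothelial-like cells the 1 ligand counted was higher, against 5.95%, and none was lower, against 6.39%. In macrophage-like cells 1 of 4 was higher, against 6.63%, and 1 of 3 receptors, Ctla4, was lower on 52 and 3 UMIs, against 4.0%. Cd28, with 30 and 3 UMIs in macrophage-like cells, had -1.93 (-4.28 to -0.24) but -0.92 with 1 CPM added, and was not counted. In monocyte-like cells 1 of 3 was higher, against 11.1%, and none lower, against 12.7%. The TMM factor ratio there is -0.30, and with that scaling Cd274 (0.84 without it) and Cd86 (0.95 without it) passed 2-fold too. In neutrophil-like cells, with 42 untreated cells, no ligand passed 2-fold in either direction, although 27.9% of genes were higher and 33.5% lower. With TMM scaling Cd274 (2.07), Pdcd1lg2 (1.84) and Cd86 (1.36) passed it there, the latter pair on 2 and 3 untreated UMIs. In DC-like cells 1 of 4 was higher, against 10.3%, and none lower, against 20.8%. In CD8 T–like cells 1 of 4 ligands was higher, against 5.35%, and 1 lower, against 9.16%, and in conventional CD4 T–like cells 2 of 3 (Cd274 and Cd86) were higher, against 9.34%, and neither passes with T cell types from marker UMIs (0.56 and -0.11). In Treg-like cells 2 of 4 (Cd80 and Cd86) were higher, the latter on 21 and 8 UMIs, against 8.18%, and none was lower, against 24.4%. In the fibroblast-like class, 99.6% of genes had a lower log2 ratio (with 1 CPM added) than Cd274 and 99.0% a lower one than Cd80, and in the tumor class 99.2% a lower one than Cd274.

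Ligand pairs were also read within single cells at 1500 UMIs. Of 179 untreated DC-like cells with a Cd274 UMI, 36.9% had one of Cd80 (29.8 to 44.4), against 20% of 185 cells without (14.5 to 26.5). In MSA-2 macrophage-like cells the shares were 10.5% of 694 cells (8.34 to 13) and 5.49% of 528 cells (3.71 to 7.79). In MSA-2 neutrophil-like cells they were 25.3% (23.2 to 27.5) and 23.5% (18.6 to 28.9). In the other library of the first 2 classes the intervals overlapped, with 52.4% of 21 (29.8 to 74.3) and 26.1% of 23 (10.2 to 48.4) MSA-2 DC-like cells and with 6.76% of 873 (5.18 to 8.63) and 5.91% of 1843 (4.88 to 7.09) untreated macrophage-like cells. The differences between these classes and libraries were not tested. Cells of 1 library are not replicates, and these values describe the libraries.

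Genes of the pathways around the family were counted from 7 lists. Of 12 genes that relay interferon signals to Cd274, Stat2, a subunit of the interferon-activated factor ISGF3, was at least 2-fold higher over all cells (54.0 and 111 CPM), and no other was, against 2.98% of all genes. In macrophage-like cells it was also Stat2 alone (66.0 and 166 CPM, against 6.63% of all genes), and in fibroblast-like cells Stat2 (35.6 and 119 CPM) and Irf2 (40.9 and 107 CPM), against 7.06%. In monocyte-like cells, where Cd274 was higher, Ifngr1 (205 and 74.3 CPM) and Ifngr2 (169 and 45.6 CPM), the chains of the interferon gamma receptor, were at least 2-fold lower and Stat2 (93.4 and 252 CPM) was higher, with a median of -0.14 beside -0.27 over all genes, of which 11.1% were higher and 12.7% lower. In DC-like cells Stat2 (130 and 324 CPM) and Irf2 (84.2 and 170 CPM) were higher and none was lower, against 10.3% and 20.8% of all genes. In macrophage-like, monocyte-like and DC-like cells these counts of 1 or 2 of 12 are near the shares over all genes. Over all cells and in fibroblast-like cells they are above those shares, but rest on 1 and 2 genes. In the tumor class none of the 12 passed 2-fold, although their median log2 ratio was 0.42 beside 0.03 over all genes. Those at least 2-fold higher in CD8 T–like cells included Stat2 (28.2 and 73.9 CPM) and Irf2 (94.9 and 237 CPM), and Tyk2 was lower, on a low level (20.2 and 6.72 CPM), against 5.35% and 9.16% of all genes. None of 6 genes of PD-L1 protein stability passed 2-fold over all cells, in the tumor class or in macrophage-like cells, with medians of -0.09, -0.06 and -0.07. Of all genes, 2.98%, 2.58% and 6.63% were higher there, and 2.94%, 1.65% and 4.0% lower. In neutrophil-like cells 4 of the 6 were at least 2-fold lower, against 33.5% of all genes, each on at most 12 untreated UMIs, and in DC-like cells 2 of 6 were, against 20.8%. Cmtm6, which keeps PD-L1 at the cell surface, was among them in both (105 and 24.3 CPM, 54.3 and 11.4 CPM, the last on 2 UMIs). The TMM factor ratio in neutrophil-like cells is -1.08. With that scaling Spop (log2 ratio -1.54 without it) and Stub1 (-1.17) no longer passed 2-fold, while Cmtm4 (-3.20) and Cmtm6 (-2.11) did.

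For the receptors, none of 13 genes that relay PD-1 and CD28 signals passed 2-fold in CD8 T–like cells (median -0.08), against 5.35% of all genes higher and 9.16% lower. Over all cells 6 of 13 were at least 2-fold lower, against 2.94% of all genes, among them Lck (11.3 and 2.64 CPM), a kinase of T cells. Of 11 measured transcription factors of Pdcd1 and exhaustion, 4 were at least 2-fold lower in CD8 T–like cells and 1 higher, against 9.16% and 5.35% of all genes there. The lower ones were Nr4a1 (179 and 48.7 CPM), Nr4a2 (804 and 289 CPM) and Nr4a3 (266 and 102 CPM), nuclear receptors induced by T cell receptor signals, and Tbx21 (193 and 82.3 CPM), the T-bet of effector cells. In the tumor class 2 of 12 were at least 2-fold lower, Nr4a2 and Nr4a3 (236 and 87.5 CPM, 110 and 25.5 CPM), against 1.65% of all genes. At least 1 Nr4a gene was also 2-fold lower in macrophage-like, monocyte-like, fibroblast-like, endothelial-like, neutrophil-like, Treg-like and NK-like cells. Of all genes, 12.7% were lower in monocyte-like, 7.21% in fibroblast-like, 6.39% in endothelial-like and 6.95% in NK-like cells. The shares were larger, 33.5% and 24.4%, in neutrophil-like and Treg-like cells. In Treg-like cells the gene was Nr4a1, on 82 and 4 UMIs, with a log2 interval of -3.14 to 0.19. In neutrophil-like cells Nr4a2 and Nr4a1 rest on 12 and 21 untreated UMIs. In macrophage-like cells, where 4.0% of all genes were lower, Nr4a1 was at 229 and 83.5 CPM. None of 7 genes of CTLA-4 trafficking passed 2-fold over all cells, against 2.98% of all genes higher and 2.94% lower. None did in CD8 T–like cells, against 5.35% and 9.16%. Of 9 measured other members of the CD28 and B7 family, 4 were at least 2-fold lower over all cells, against 2.94% of all genes: Icos (10.4 and 0.917 CPM), Btla (2.41 and 0.323 CPM), Icosl (2.73 and 0.730 CPM) and Vsir (15.4 and 6.45 CPM). In CD8 T–like cells 2 of the 4 measured were at least 2-fold lower and none higher, against 9.16% and 5.35% of all genes. They were Icos, the inducible costimulator (206 and 102 CPM), and Vsir (29.8 and 11.8 CPM, the last on 7 UMIs).

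Among 11 genes of NF-kB, CD40 and MARCH1 that act on CD80 and CD86, Cd83, which protects CD86 from MARCH1, was at least 2-fold lower in macrophage-like cells (503 and 132 CPM) and in monocyte-like cells (302 and 19.2 CPM), where 4.0% and 12.7% of all genes were. Ciita, the master regulator of MHC class II, was at 24.8 and 1.86 CPM in macrophage-like cells. In DC-like cells Cd40 (57.9 and 159 CPM) and Myd88 (20.3 and 51.1 CPM) were at least 2-fold higher and none was lower, against 10.3% and 20.8% of all genes. Nfkb1 was at 593 and 1223 CPM in monocyte-like cells, where 11.1% of all genes were higher. Traf6 was higher (22.0 and 46.6 CPM) and Cd83 lower (9.49 and 1.17 CPM) in the tumor class, against 2.58% and 1.65% of all genes. The Cd83 difference ran against that of Cd86 in monocyte-like cells, with Cd86 at 504 and 973 CPM.

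The genes most like each member over the 31 class and library points were named by Pearson's r. For Pdcd1 they were Cd27, Themis and Cd8b1 (0.93, 0.93 and 0.92), for Ctla4 Cd2, Tigit and Trac (0.97, 0.95 and 0.95), and for Cd28 Lck, Cd247 and Gm33104 (0.99 each). For Cd274 they were N4bp1, Trafd1 and Sp140 (0.86, 0.86 and 0.84), for Cd80 Alcam, Plek and Samhd1 (0.85, 0.80 and 0.79), for Cd86 Atp6ap2, Synj1 and Ly86 (0.91, 0.91 and 0.90), and for Pdcd1lg2 Traf1, Tspan13 and Selplg (0.81, 0.80 and 0.79). By Pearson's r the receptors thus had mainly T cell genes as their nearest patterns, and each ligand had different ones. By Spearman's rho, Cd2 and Tigit ranked only 156 and 163 for Ctla4, whose nearest gene was Trac (0.91). The nearest by rho was Sla2 (0.91) for Pdcd1 and Icos (0.90) for Cd28. Between receptors, r was 0.94 for Ctla4 and Cd28, 0.89 for Pdcd1 and Cd28 and 0.83 for Pdcd1 and Ctla4. Spearman's rho for these pairs was 0.62, 0.81 and 0.70.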

How the data were processed

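Both libraries were 10x Chromium 3′ v3.1 libraries of dissociated, pooled MC38 tumors. The deposited values are raw UMI counts per gene and barcode, which the authors made with Cell Ranger without normalization and, per the labels, for mm10. The submitters' processing notes list Cell Ranger 7.0.0 and Seurat 4.3.0, whereas the study's methods name a later version of each. The libraries hold 14386 untreated and 14617 MSA-2 barcodes with 198135335 and 204387165 UMIs. No per-sample column was left unused (0).

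The cell filter required 500 genes and allowed 20% of UMIs from mitochondrial genes. After it, 705 and 570 doublets called by Scrublet (scanpy 1.11.5, 8 per 1000 barcodes) were removed. Cells were integrated and clustered in Seurat 5.3.0 (2000 variable genes, 30 dimensions, resolution 1), and NK/T-like and myeloid cells were clustered again. Clusters were named from marker lists when at least 3 markers were detected, so the names are rebuilt and can differ from the study's. UMIs were summed by class, scaled to CPM and compared as log2 ratios of MSA-2 over untreated. Exact 95% intervals came from the Clopper-Pearson method for shares, the conditional binomial for ratios and the Poisson distribution for sums, and a count of 0 allows up to 3 counts; they cover counting error only. With 1 library per group no p-value was computed. Genes with at least 20 UMIs over both libraries were compared, with 1 CPM added for ranks and list medians, and 2-fold was the limit for a count. The computations were tested on simulated data.

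The members and lists were chosen with earlier results of these data known. The genes named are the 7 members in each class, up to 4 genes per list and class that were at least 2-fold higher or lower, by size, and the 3 genes most like each member, though not all are printed. Likeness was Pearson's r of log2 of CPM plus 10 over classes of at least 20 cells in a library, for genes with at least 200 UMIs in all. Alternatives were a stricter cell filter (1000 genes, 10% mitochondrial UMIs), doublets kept, no integration, resolutions 0.5 and 2, edgeR 4.0.16 TMM scaling, UMIs per cell, shares at 1500 UMIs and T cell types from marker UMIs.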

Additional observations from a re-analysis of the deposited data

How the results depend on the processing

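No paired analysis was possible because each condition has 1 library, and for the same reason no replicate could be left out. Of 376 alternative values of 48 log2 ratios of the members, 300 stayed within the counting interval of the reported value, 76 moved outside it, and 351 kept its sign. For the 20 leading ratios, 48 of 145 moved. Among other results, 22 of 24 alternative values moved for shares of cells with a UMI and 11 of 36 for shares of cells in a class. For list counts 49 of 252 moved, and for the most alike genes 3 of 7. The values below are log2 ratios outside the counting interval of the reported value for the leading results, and the cause of each move was not tested.

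Under the stricter cell filter (1000 genes, 10% mitochondrial UMIs), the ratios over all cells were 1.06 for Cd274, -1.98 for Pdcd1lg2, -0.28 for Cd80 and -1.13 for Cd86, and Cd274 was 2.60 in neutrophil-like cells. With TMM scaling Cd274 was 1.73 in the tumor class and 2.07 in neutrophil-like cells, and Cd86 was 0.11 in macrophage-like and 1.25 in monocyte-like cells. The log2 ratio of the TMM factors, MSA-2 over untreated, was -1.08 in neutrophil-like, -0.30 in monocyte-like, -0.20 in fibroblast-like, -0.17 in endothelial-like, 0.27 in conventional CD4 T–like, 0.26 in Treg-like and 0.11 in DC-like cells, and each gene's ratio in a class moves by that size in the opposite direction. As mean UMIs per cell, Cd274 was 1.40 over all cells, 1.84 in the tumor class and 1.03 in macrophage-like cells, Cd86 was -0.99 over all cells and -0.20 in macrophage-like cells, and Cd28 was -0.18 in CD8 T–like cells.

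As shares of cells at 1500 UMIs, the ratios over all cells were -2.64 for Ctla4, 1.04 for Cd274, -0.29 for Pdcd1lg2, 0.78 for Cd80 and -0.68 for Cd86. Cd274 was then 1.64 in the tumor class, 0.82 in macrophage-like and 4.13 in fibroblast-like cells, Cd86 was 0.50 in monocyte-like cells, and Ctla4 was -0.60 in CD8 T–like and -0.28 in Treg-like cells. With doublets kept, Cd274 was 1.93 in the tumor class and 1.08 in macrophage-like cells, Pdcd1lg2 -1.50 and Cd86 0.31 in macrophage-like cells, and Cd80 1.21 and Cd86 0.70 in monocyte-like cells. Without integration, macrophage-like cells had 1.20 for Cd274 and 0.83 for Cd86. At resolution 0.5 they had 1.16 and 0.24, Cd86 was 1.29 in monocyte-like cells, and CD8 T–like cells had -0.48 for Pdcd1, -1.62 for Ctla4 and -0.75 for Cd28. At resolution 2, macrophage-like cells had 1.05 for Cd274, -1.45 for Pdcd1lg2 and 0.20 for Cd86, and Cd80 was 1.12 in monocyte-like cells. With T cell types from marker UMIs, CD8 T cells had 0.22 for Pdcd1 and -0.79 for Ctla4. In 2 alternatives chosen after seeing the data, Ctla4 was -0.45 in CD8 T–like cells without the cycling sub-cluster, and Cd274 was 1.59 in tumor cells without a UMI of 6 immune genes.

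Among other results, the shares of DC-like, Treg-like and conventional CD4 T–like cells in the MSA-2 library rest on 54, 18 and 23 cells, and the untreated neutrophil-like values on 42 shallow cells, so that these limit every ratio taken from them.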
